A study of Homo sapiens with 4 samples.

Results

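The data are p53 ChIP-seq peaks from H1299, a human non-small-cell lung carcinoma cell line that has no p53 of its own (genotype p53-/-) and in which p53 was expressed again. The groups were wild-type p53 (p53WT, 2 libraries) and the mutant named CASM34 in the labels (2 libraries), in a series on cancer-associated synonymous mutations. All 4 libraries share the line and the p53 antibody DO-1, and no library of cells without p53 was analysed here. The labels do not say how p53 was introduced or whether the replicates came from separate cultures. The regions described here were chosen by the deposited peak calls: they were called in the list of p53WT 2 and in none of the other 3, with their midpoint within 1 kb of either end of a protein-coding gene. They numbered 1310, out of 7727 merged regions on chromosomes 1 to 22 and X. They made up 40.6% of the 3230 regions called in p53WT 2 alone (95% interval 38.9 to 42.3), and 76.3% of the 1716 gene-end regions that held a p53WT 2 peak (74.3 to 78.3). The choice used which library called a peak, so their absence from the other lists is the rule and not a result. Each region rests on 1 library, and its values have no replicate check.

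p53 is a transcription factor that binds a response element made of a pair of half-sites, in promoters and introns of genes for cell cycle arrest, DNA repair, apoptosis and metabolism. The start of an active gene lies in open chromatin, is flanked by nucleosomes and often sits in a CpG island, a stretch rich in the dinucleotide CG. Libraries were cut with micrococcal nuclease, which digests the DNA between nucleosomes, and sonicated.

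A few promoters that the peak reached are shown. They were chosen for that and are not typical, since 639 of 1100 promoter windows were not touched by the peak. Each is the RefSeq sequence of GRCh38.p14 from 250 bases before to 50 bases after the gene start, on the strand of the gene. UBN2, for a ubinuclein family protein, carried the strongest region, and DRAM1, for an autophagy regulator, is a known p53 target. In both sequences capitals mark the bases inside the peak, 21 for UBN2 (chr7:139230987-139231286, plus strand) and 40 for DRAM1 (chr12:101877330-101877629, plus strand). Both peaks begin just past the gene start and run on into the gene.
UBN2: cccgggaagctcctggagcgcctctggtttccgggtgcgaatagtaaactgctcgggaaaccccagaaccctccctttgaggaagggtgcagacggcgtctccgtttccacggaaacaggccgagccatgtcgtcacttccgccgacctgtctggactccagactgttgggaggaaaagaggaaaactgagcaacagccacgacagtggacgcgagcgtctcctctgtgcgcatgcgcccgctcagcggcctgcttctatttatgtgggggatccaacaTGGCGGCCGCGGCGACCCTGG
DRAM1: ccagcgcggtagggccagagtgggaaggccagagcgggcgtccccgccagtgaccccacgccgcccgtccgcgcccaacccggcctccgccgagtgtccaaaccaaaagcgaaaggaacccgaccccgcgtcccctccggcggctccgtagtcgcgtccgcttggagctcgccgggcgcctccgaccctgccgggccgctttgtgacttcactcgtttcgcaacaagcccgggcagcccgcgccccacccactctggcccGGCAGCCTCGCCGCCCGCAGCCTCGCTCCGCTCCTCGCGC
In the promoters of MAP3K4, a MAP kinase kinase kinase (chr6:160991519-160991818, plus strand), ZNF770, a zinc finger gene (chr15:34988238-34988537, minus strand), and MCC (chr5:113488404-113488703, minus strand), capitals mark matches to the p53 half-site consensus. ZNF770 and MCC were chosen after their values were seen, MCC as the 1 promoter of 1100 in these genes with a pair of half-sites, here 7 bases apart. Its peak covered 244 of the 300 bases, both half-sites included, with the summit 103 bp before the start, a deposited fold of 4.80 and a deposited −log10 q of 2.87.
MAP3K4: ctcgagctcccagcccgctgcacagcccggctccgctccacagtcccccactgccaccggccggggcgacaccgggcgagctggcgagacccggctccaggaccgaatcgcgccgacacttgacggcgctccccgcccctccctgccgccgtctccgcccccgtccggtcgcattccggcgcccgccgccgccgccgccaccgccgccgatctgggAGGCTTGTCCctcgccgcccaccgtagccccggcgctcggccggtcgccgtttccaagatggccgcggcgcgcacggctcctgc
ZNF770: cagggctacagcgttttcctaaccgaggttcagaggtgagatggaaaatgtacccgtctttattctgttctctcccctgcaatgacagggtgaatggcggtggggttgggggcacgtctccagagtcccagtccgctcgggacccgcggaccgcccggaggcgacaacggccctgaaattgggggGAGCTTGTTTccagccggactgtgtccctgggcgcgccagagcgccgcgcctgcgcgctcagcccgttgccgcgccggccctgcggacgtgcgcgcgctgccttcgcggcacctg
MCC: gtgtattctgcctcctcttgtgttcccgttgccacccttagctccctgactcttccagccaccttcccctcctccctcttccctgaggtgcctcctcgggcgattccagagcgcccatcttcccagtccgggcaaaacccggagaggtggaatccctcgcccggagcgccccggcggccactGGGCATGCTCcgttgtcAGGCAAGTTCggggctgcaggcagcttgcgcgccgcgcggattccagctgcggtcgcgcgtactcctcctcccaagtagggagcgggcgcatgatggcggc
In the promoters of COA8, a mitochondrial assembly factor (chr14:103562710-103563009, plus strand), and OGFRL1 (chr6:71288561-71288860, plus strand), capitals mark CG dinucleotides. There are 49 in COA8 and 43 in OGFRL1, and both promoters lay wholly inside their peak. The summit was 475 bp before the start in COA8 and 22 bp before it in OGFRL1. The COA8 region is nearer to the start of BAG5, on the opposite strand, and its summit lies past that start in the direction of BAG5.
COA8: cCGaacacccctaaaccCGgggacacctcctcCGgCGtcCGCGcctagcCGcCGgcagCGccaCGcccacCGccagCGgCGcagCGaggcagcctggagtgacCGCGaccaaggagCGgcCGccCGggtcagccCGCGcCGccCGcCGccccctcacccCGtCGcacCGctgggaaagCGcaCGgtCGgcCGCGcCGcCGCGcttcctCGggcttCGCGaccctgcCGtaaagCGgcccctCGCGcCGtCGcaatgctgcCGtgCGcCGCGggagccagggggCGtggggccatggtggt
OGFRL1: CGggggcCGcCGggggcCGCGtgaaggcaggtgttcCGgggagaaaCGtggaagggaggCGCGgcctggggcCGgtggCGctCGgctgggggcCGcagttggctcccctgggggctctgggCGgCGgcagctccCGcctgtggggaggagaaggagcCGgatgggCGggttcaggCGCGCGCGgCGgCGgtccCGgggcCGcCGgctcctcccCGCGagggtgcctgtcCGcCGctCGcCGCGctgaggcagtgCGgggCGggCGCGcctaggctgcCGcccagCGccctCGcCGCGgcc

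The regions lay at gene starts, although the rule takes either end of a gene. Of the 1057 regions whose nearest gene has a strand in the RefSeq promoter table, 1022 were nearest to its start and 35 to its far end, so that 96.7% lay at a start (95% interval 95.4 to 97.7). The 253 regions without a strand, among them all 85 on chromosome 8, are missing from this share, from the summit positions and from the promoter and motif counts. The share was 98.4% for the 250 regions with a strand among 339 gene-end regions called in both libraries numbered 2 and no other. It was 96.1% for 566 of the 699 gene-end regions called in CASM34 2 alone. The intervals of the 3 classes overlapped. Of the 35 regions at a far end, 4 had the start of another gene within 1 kb and 3 had only that of the same, short gene. The remaining 28 included regions at the far ends of CYP2W1, a cytochrome P450 (−log10 q of 5.05), PEX26, a peroxisome assembly gene (4.15), and NPLOC4, a cofactor of protein unfolding (3.94), named after their values were seen.

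Summits lay inside the gene, a little past its start. The median summit of the 1022 regions was 190.5 bp inside the gene, with quartiles at 92 and 370.75 bp, and 840 summits (82.2%) were inside. Between 50 and 350 bp inside lay 543 summits (53.1%), against 108 (10.6%) in the mirrored band before the start and 45 (4.40%) within 50 bp of it. The bin from 100 to 200 bp inside held 256 summits, the highest of all bins of 100 bp. The other classes had a like profile. The median was 205.5 bp in the regions of both libraries numbered 2 and 223.5 bp in those of CASM34 2 alone, with 53.3% and 49.4% in the same band. No difference between these classes was tested. Among the regions of p53WT 2 alone, ordered by −log10 q into 3 bins of 340 or 341, the band held 44.9% of the lowest bin, 55.9% of the middle one and 58.7% of the highest. The lowest bin ended and the middle one began at the same −log10 q of 2.02. Regions tied at that value were split between them by their order on the genome.

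**Figure D1:**
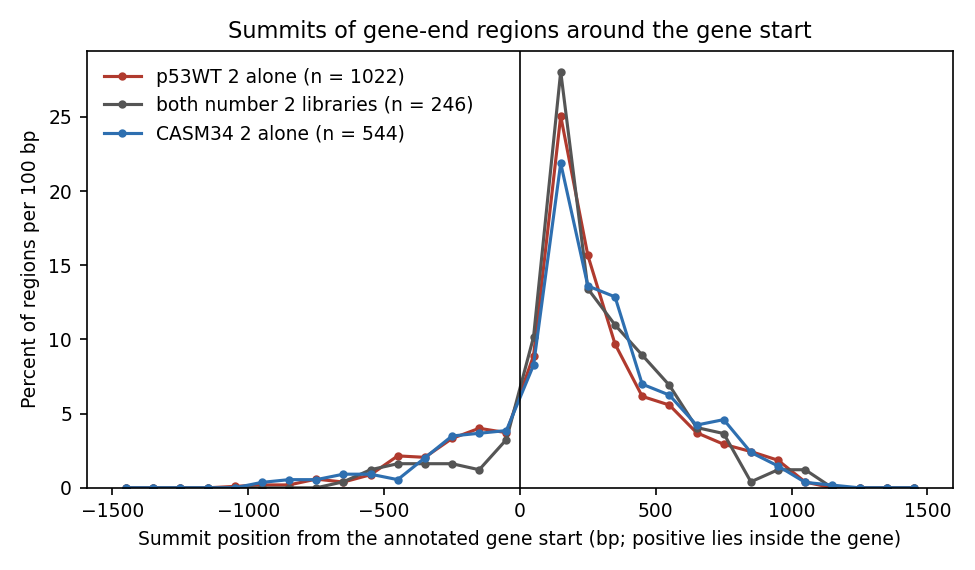
Position of peak summits from the annotated start of the nearest gene (x axis, bp, positive inside the gene) as the percent of regions per bin of 100 bp (y axis), for gene-end regions of p53WT 2 alone (1022), of both libraries numbered 2 (246) and of CASM34 2 alone (544). All 3 lines rise steeply past the start and peak between 100 and 200 bp inside the gene.

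The peaks were modest in the authors' own measures. Their deposited fold, the ratio of signal over background, had a median of 4.45 and ran from 3.14 to 8.04. The median deposited −log10 q was 2.61, with quartiles of 1.91 and 3.48, a highest value of 9.45 and a lowest of 1.31, which is also the lowest of the whole p53WT 2 list. Median width was 231 bp, and 1302 of the 1310 had a single summit. Only 3 values of −log10 q (1.35, 2.02 and 2.82) held 390 of the regions (29.8%), so many regions tie in rank. Gene-end regions shared with CASM34 2 had a median −log10 q of 3.12 in p53WT 2, and the 67 shared with a library numbered 1 had 4.06. Regions of p53WT 2 alone away from gene ends had 2.48. Gene-end regions of CASM34 2 alone had 2.63 in their own list, with a median fold of 4.60. A −log10 q of at least 3 was reached by 32.3% of the regions of p53WT 2 alone and by 53.4% of those shared with CASM34 2. Strength decides whether a peak is called, so these values are a description of the rule's outcome.

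**Figure D2:**
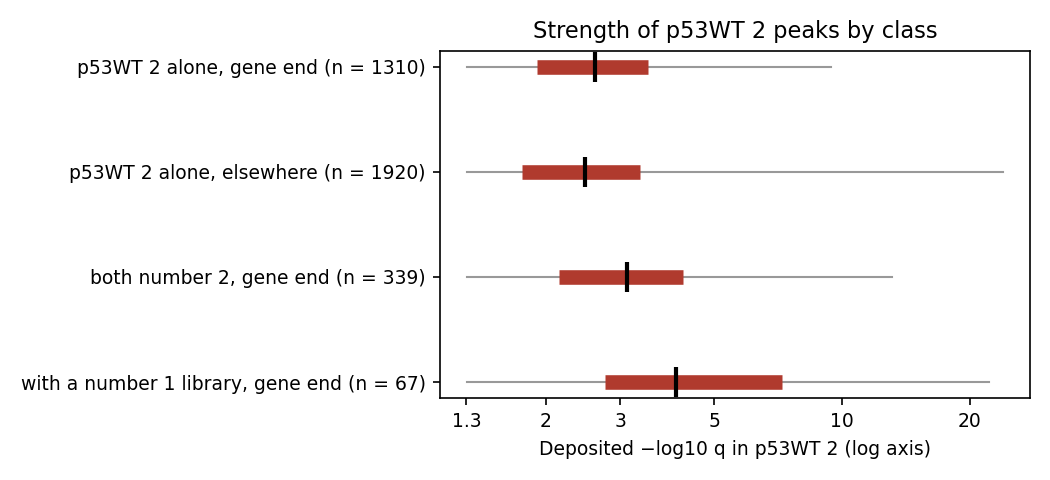
Deposited −log10 q in p53WT 2 (x axis, log scale) for 4 classes of region (rows), with the lowest to highest value as a thin line, the quartiles as a bar and the median as a tick. Gene-end regions of p53WT 2 alone (median 2.61) lie below gene-end regions shared with CASM34 2 (3.12) or with a library numbered 1 (4.06). Regions of p53WT 2 alone elsewhere have a median of 2.48.

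The number of regions differed between the lists. The p53WT 2 list held 4946 peaks and the CASM34 2 list 3196, and the same rule gave 1310 regions for the first and 699 for the second. With each list reduced to its 1591 best-ranked peaks, the counts were 262 and 266. Keeping in every list only peaks with a −log10 q of 3 or more gave 504 and 381, and a minimum of 5 gave 119 and 91. As every list was cut before the rule was applied, some regions entered only once weaker peaks were dropped. Of the 1310 regions themselves, 423 had a −log10 q of at least 3 and 75 of at least 5. The counts for CASM34 2 at these settings were added after seeing the data. In p53WT 1 (1591 peaks) and CASM34 1 (1698) the same rule gave 15 and 25 regions, far fewer than the reduced lists of the libraries numbered 2. All 4 lists entered the rule, and the number of regions gives no comparison of p53WT with CASM34.

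Some regions had a peak of another library close by, which the rule allows where the intervals do not touch. A CASM34 2 summit lay within 1 kb of the same gene end for 110 of the 1310 regions (8.40%, 95% interval 6.95 to 10.0), against 3.12% of all 39940 gene ends. For p53WT 1 the number was 4 and for CASM34 1 it was 7, against 0.163% and 0.228% of all gene ends. That background counts both ends of each gene, whereas 96.7% of the regions with a strand lay at a start. Per gene, with a summit near either end, the shares were 6.06% for CASM34 2, 0.285% for p53WT 1 and 0.416% for CASM34 1. No background of starts alone or of CpG-rich starts is given here, so these contrasts are not like for like. Within 10 kb of the gene end, 169 regions (12.9%) had a summit of at least 1 other library, 158 of them in CASM34 2. The other replicate of the same group, p53WT 1, thus had fewer summits beside these regions than CASM34 2 had, and its list is also shorter, with 1591 peaks.

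The best-ranked regions lay at genes of varied function. The region at UBN2 (chromosome 7, 139231266 to 139231939) had its summit 142 bp inside the gene, a fold of 8.04 and a −log10 q of 9.45. The next was at JRK on chromosome 8 (−log10 q 8.74), followed by TDRD12, for a Tudor domain protein (8.70), PLPP1, a phospholipid phosphatase (8.50), and CA2, carbonic anhydrase 2 (7.89). GFPT1, which makes the first step of hexosamine synthesis, followed with 7.82, and DEK, a chromatin protein, with 7.59. MAU2, a loader of cohesin, had 7.27, MGME1, a mitochondrial exonuclease, 7.17, and CBX1, the heterochromatin protein HP1 beta, 7.12. Where a strand was known the summit was between 125 and 291 bp inside the gene. The nearest summit of any other library was 27226 bp from the gene end at TDRD12, and farther at the others.

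The last 2 regions inside the limit of 1 kb were at DUSP16 (midpoint 994.5 bp from the end, −log10 q 1.31) and LRRTM1 (996 bp, 1.35). The first 2 outside it were at TG (1005.5 bp, 2.82) and SHOX2 (1009 bp, 2.60).

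Gene ends within 1 kb of these regions belonged to 1412 of 19970 protein-coding genes, or 7.07%, which is the background for the counts that follow. A region was near 1 gene in 1161 cases, near 2 genes in 144 and near 3 or more in 5, so some genes share a region. Most genes (1362) had 1 such region, and 2 genes, RIMS2 and ZNF777, had 3. Gene-end regions of CASM34 2 alone touched 787 genes (3.94%) and those of both libraries numbered 2 touched 389 (1.95%). Of the 1412 genes, 100 also had a region of CASM34 2 alone, which is 7.08% of the one list and 12.7% of the other.

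Known p53 target genes carried such regions at 12 of 84 genes on 4 lists (14.3%, 95% interval 7.61 to 23.6), against 7.07% of all protein-coding genes. Gene-end regions of CASM34 2 alone were also found at 12 of the 84 (against 3.94%), and those of both libraries numbered 2 at 10 (against 1.95%). Counting summits within 1 kb of an end, whether shared or not, gave 22 of the 84 in p53WT 2 and 22 in CASM34 2, against 9.17% and 6.06% of all protein-coding genes. It gave 1 each in p53WT 1 and CASM34 1, against 0.285% and 0.416%.

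Of the 24 targets for cell cycle arrest and p53 feedback, 4 had a region of p53WT 2 alone. MDM2 encodes the ubiquitin ligase that holds p53 levels down. It had a region on chromosome 12 (68808255 to 68808496) with its summit 157 bp inside the gene, a fold of 4.92 and a −log10 q of 3.50. PPM1D, a phosphatase that dampens the DNA damage response, had its summit 201 bp inside the gene, with a fold of 4.88 and a −log10 q of 2.82. PLK2, a polo-like kinase, had its summit 202 bp before the start, with a −log10 q of 2.02. The nearest summit of another library to these 3 genes was one of CASM34 2, 124903 bp from the gene end of MDM2. TP53INP1, a stress protein that acts with p53, had a −log10 q of 3.52. Here CASM34 2 had a summit 281 bp from the same gene end and CASM34 1 had one 435 bp from it. TP53INP1 therefore met the rule because the intervals did not touch, although 3 libraries called a peak at this gene end.

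Of the 17 DNA repair targets, 4 had a region. GADD45G, a growth arrest gene, had its summit 787 bp before the start (−log10 q 3.51). POLK, a polymerase that copies past DNA lesions, had it 332 bp inside the gene (2.82). PCNA, the replication clamp, had 2.02, and the end of CDS2 was nearer than that of PCNA. Of the 20 metabolic and redox targets, 3 had a region. These were GLS2, a glutaminase (−log10 q 3.15, summit 548 bp inside the gene), SLC2A1, the glucose transporter GLUT1 (1.46), and SOD2, a mitochondrial superoxide dismutase (1.35), where the end of ACAT2 was nearer. Of the 23 apoptosis targets, 1 had a region of p53WT 2 alone (4.35%), DRAM1, with a fold of 4.21 and a −log10 q of 2.02. Regions of CASM34 2 alone were at 6 of these 23 genes and those of both libraries numbered 2 at 4. Among all 12 targets the median −log10 q was 2.42, against 2.61 for all the regions.

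Cell cycle genes bound by the DREAM complex, which holds them silent in resting cells, had such a region at 8 of 35 (22.9%, 95% interval 10.4 to 40.1), against 7.07% of all protein-coding genes. They had none shared with CASM34 2, against 1.95% of all protein-coding genes, and 2 (5.71%) in CASM34 2 alone, against 3.94%. Both counts are small and near those shares, so they do not set the libraries apart. Among the 8, the highest −log10 q was 4.73, at the proliferation marker gene MKI67, with its summit 316 bp inside the gene and a fold of 5.98. The replication helicase gene MCM4 had 3.62 and the transcription factor gene FOXM1 had 2.69. Among the others were CCNB2, MYBL2, CDC25A and ECT2. CDC25C was the eighth, with a −log10 q of 1.35 and the end of FAM53C nearer. Over the list the median −log10 q was 2.02.

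Among gene families, those of protein turnover and translation initiation had shares above the background of 7.07%. Proteasome subunits and their chaperones had a region at 9 of 48 genes (18.8%, 95% interval 8.95 to 32.6), led by PSMD1 (−log10 q 3.59), PSMG1 (2.82) and PSMC1 (2.14). Ubiquitin-conjugating enzymes had 7 of 36 (19.4%, 8.19 to 36.0), led by UBE2B (4.15, where CDKL3 is nearer), UBE2E3 (2.81) and UBE2Q2 (2.70). CASM34 2 had a summit 293 bp from the same gene end of UBE2Q2, in an interval that did not touch the region. Translation initiation factors had 8 of 55 (14.5%), led by EIF5 (3.44), EIF2B4 (3.38) and EIF4H (2.02). In these 3 families regions of CASM34 2 alone were at 2, 3 and 1 genes (4.17%, 8.33% and 1.82%), against 3.94% of all protein-coding genes. RNA helicases of the DEAD and DEAH type had 6 of 53 (11.3%), with DHX57 highest (5.59). Subunits of RNA polymerase II and TFIID had 4 of 37 (10.8%), and splicing factors had 9 of 87 (10.3%), led by SF3B3 (4.90, where COG4 is nearer). The intervals of the last 3 families, and that of the initiation factors, include the background of 7.07%. Among genes with a CpG-rich promoter (defined below) the share with a region was 10.5%. The intervals of all the families in this paragraph include that value. So do those of the DREAM genes (10.4 to 40.1) and of the p53 targets (7.61 to 23.6). Promoter type was not matched, so these lists are not set apart from genes with a CpG-rich promoter. No list was tested, and the lists were chosen with earlier results of these data known.

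Other families were near or under the share of 7.07%. Zinc finger genes named ZNF had a region at 36 of 517 (6.96%), led by ZNF141 (6.77), ZNF682 (5.79) and ZNF250 (4.94, where an unnamed locus is nearer). Solute carriers had 29 of 386 (7.51%), replication-dependent histone genes 5 of 69 (7.25%) and cytosolic ribosomal proteins 5 of 84 (5.95%). Of the ribosomal genes RPS16 was highest (4.04), then RPL6 (3.12, where PTPN11 is nearer) and RPL5 (2.82). The histone genes H2AC20 and H2BC21 shared 1 region (1.93). Heat shock and immediate early genes had 2 of 28, HSP90AA1 (5.33, with WDR20 nearer) and JUND (1.68). Remodelers had 2 of 30 (95% interval 0.818 to 22.1%), CHD7 (3.34) and SMARCC1 (2.82). Regions of CASM34 2 alone were at 6 of these 30 (20%, against 3.94% of all protein-coding genes). Mitochondrial ribosomal proteins had 3 of 77 (3.90%), complex I subunits 2 of 45 (4.44%) and aminoacyl-tRNA synthetases 1 of 35 (2.86%), and their intervals include 7.07%. Keratins and keratin-associated proteins had 3 of 149 (2.01%) and olfactory receptors 0 of 392 (95% interval up to 0.937%). Liver genes had 1 of 20, APOB (1.96; 95% interval 0.127 to 24.9%), and neuron and lung epithelium genes 0 of 20 each (up to 16.8%), so that these short lists cannot be told from the background.

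**Figure D3:**
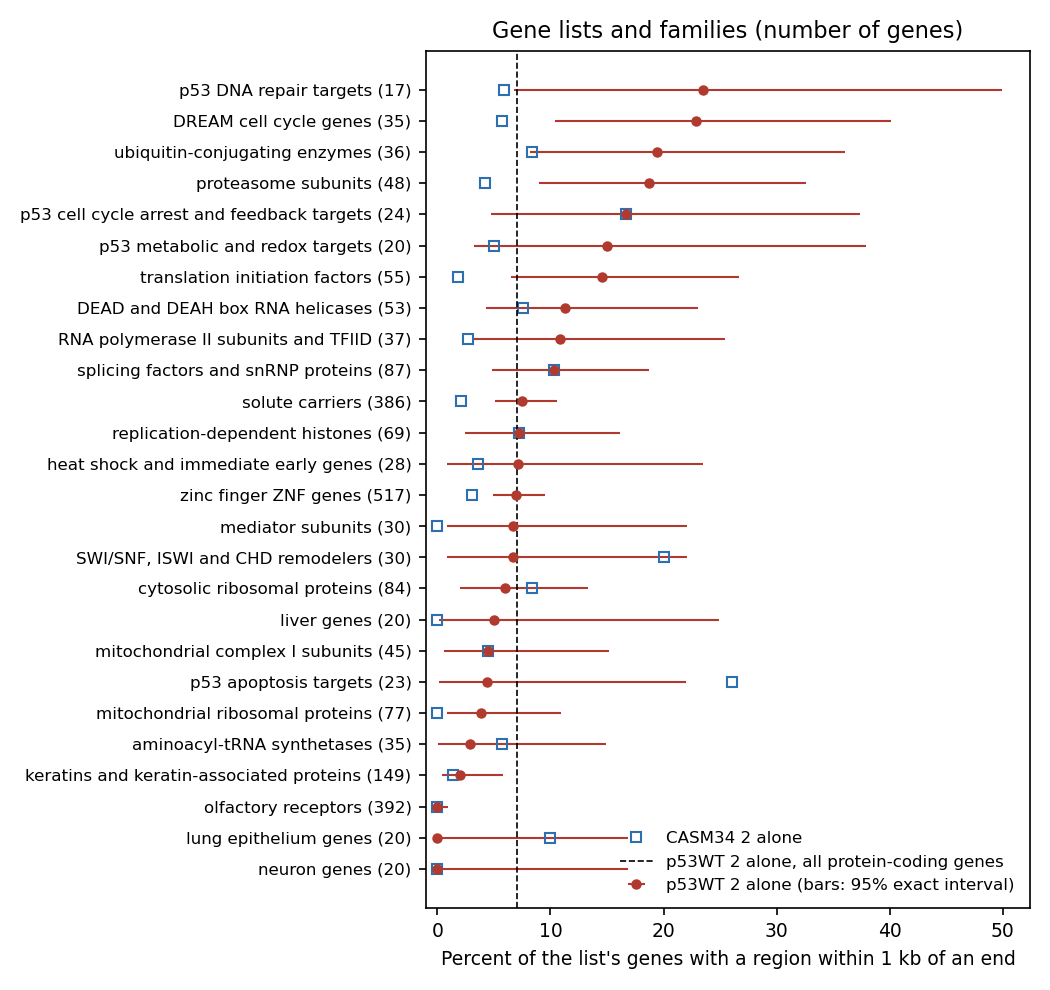
Percent of the genes of each list or family with a region of p53WT 2 alone within 1 kb of an end (filled circles, with 95% exact intervals) or with one of CASM34 2 alone (open squares). The dashed line marks 7.07%, the share of all protein-coding genes for p53WT 2 alone. DREAM genes (22.9%), proteasome subunits (18.8%) and ubiquitin-conjugating enzymes (19.4%) lie to its right and olfactory receptors (0 of 392) to its left. The intervals of those named to the right include 10.5%, the share of genes with a CpG-rich promoter.

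The regions were spread unevenly over the chromosomes. They were at 13.3% of the genes of chromosome 7 (125 of 938, 95% interval 11.2 to 15.7), 12.9% of those of chromosome 8 (92 of 714), 11.2% of chromosome 6 (117 of 1049) and 10.7% of chromosome 18 (29 of 270). They were at 3.31% of the genes of chromosome 11 (43 of 1301, 2.40 to 4.43), 3.51% of chromosome 19 (51 of 1451) and 0.825% of chromosome X (7 of 848, 0.333 to 1.69). The intervals of chromosomes 7 and 8 did not overlap those of 11, 19 and X. Among CpG-rich promoters alone the same order held at the extremes, with 18.6% on chromosome 7 (88 of 473), 16.7% on chromosome 6, 5.30% on chromosome 19, 4.96% on chromosome 11 and 1.17% on chromosome X (4 of 343). Chromosome 18 did not keep its place there, with 12.6% (20 of 159, 95% interval 7.86 to 18.8) against 14.9% on chromosome 14. Chromosome 8 was not analysed in that comparison.

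Regions of the other classes followed a like pattern over the chromosomes. Across the 23 chromosomes the percent of genes with a region of p53WT 2 alone and the percent with one of CASM34 2 alone had a Pearson r of 0.84 and a Spearman rho of 0.83, and 0.81 and 0.80 without X. The points share the gene annotation and the cell line, so this is a description. In windows of 20 Mb with at least 40 genes, of which there were 150, the median percent was 6.89. The highest was 26.1% (18 of 69 genes), on chromosome 8 from 60 to 80 Mb, where regions of CASM34 2 alone were at 11.6% and those of both libraries numbered 2 at 23.2%. On chromosome 18 the first 20 Mb had 22.9% (16 of 70). Chromosome 11 from 40 to 60 Mb had 1 of 188 genes, and chromosome X from 100 to 120 Mb had 0 of 143. The median −log10 q of the regions was 2.82 on chromosomes 7 and 8 and 1.95 on chromosome 11. It was also 2.82 on chromosome 12, with 8.59% of its genes, and on chromosome 15, with 6.81%. The copy number of the chromosomes was not measured here, and its part was not tested.

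**Figure D4:**
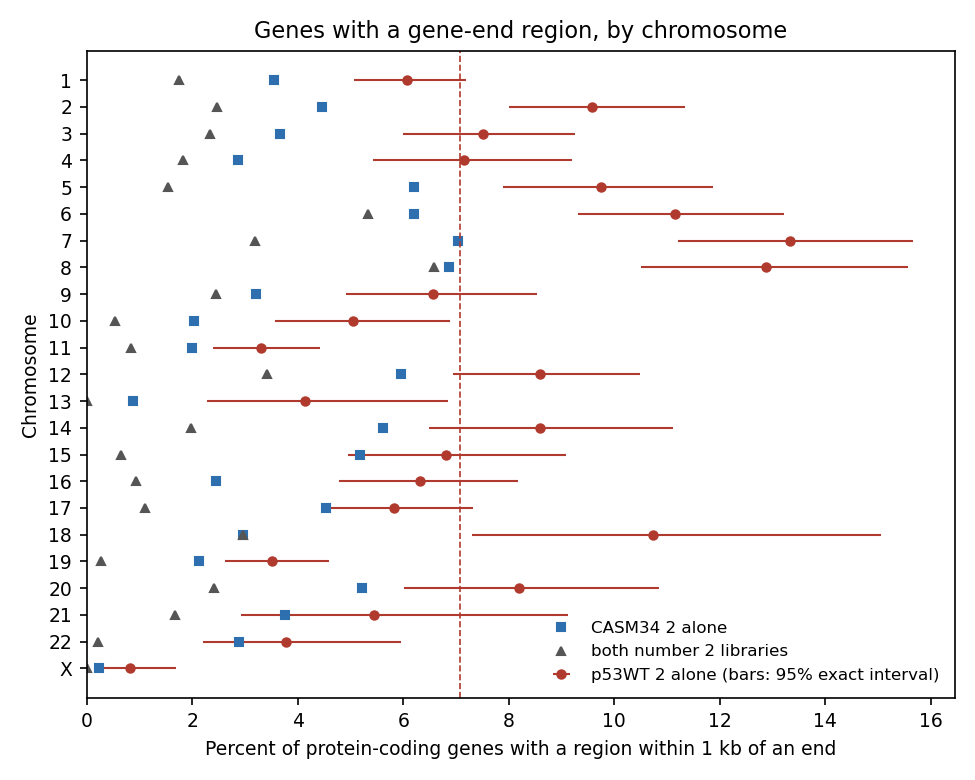
Percent of protein-coding genes (x axis) of each chromosome (rows) with a gene-end region of p53WT 2 alone (circles, with 95% exact intervals), CASM34 2 alone (squares) or both libraries numbered 2 (triangles). The dashed line is the share of 7.07% over all chromosomes; chromosomes 6, 7 and 8 lie above it and 11, 19, 22 and X below it in the circles.

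Most promoters of these genes were rich in CG. Promoter sequences of RefSeq matched 15811 of the 19970 genes, and 1100 of them had their start within 1 kb of such a region. Median GC content was 69.0%, against 62.7% over all promoters, and the median number of CG dinucleotides in 300 bases was 31 against 22. CpG-rich promoters, with a GC content of at least 55% and an observed over expected CG ratio of at least 0.6, were 87.5% of them (962 of 1100, 95% interval 85.4 to 89.4), against 59.8% of all promoters. The share was 88.2% for regions of both libraries numbered 2 and 84.0% for those of CASM34 2 alone. Counted the other way, 10.5% of genes with a CpG-rich promoter had such a region at an end, and 2.44% of genes with another promoter. The peaks touched the promoter window itself in 461 of the 1100 and covered at least 150 bases in 135.

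Motifs were counted on both strands and set beside all 15811 promoters and beside 7719 CpG-rich promoters without a gene-end region of any library. The p53 half-site consensus was in 5.82% of the promoters of these genes (64 of 1100, 95% interval 4.51 to 7.37), in 5.93% of all promoters and in 4.28% of the CpG-rich ones without a region. Its core CATG, a short motif that also occurs inside many half-sites, was in 37.3%, 49.5% and 40.8%. A pair of half-sites at most 13 bases apart was in 1 promoter, MCC, against 3 of all 15811. Among these 64 genes the strongest regions were at DMRTA1 (−log10 q 6.91), C1orf122 (6.31, where YRDC is nearer), MAP3K4 (5.88), and HSP90AA1 and WDR20, which share 1 region (5.33). The peak touched the promoter window in 17 of the 64, and of these 5 only in MAP3K4. In MAP3K4 the half-site lay 34 bases before the start, inside the peak, with the summit 233 bp past the start. The GC box GGGCGG, bound by Sp1 family factors, was in 78.0%, 58.5% and 80.9% of the 3 sets. The ETS core CCGGAAG was in 16.4%, 14.2% and 20.3%. The CCAAT box, bound by NF-Y, was in 36.1%, 36.3% and 34.6%, and the TATA box TATAAA in 4.55%, 9.64% and 3.71%. In the same order of sets, the NRF1 site was in 13.1%, 8.58% and 12.9%, and the E-box CACGTG in 11.2%, 8.87% and 10.9%. The AP-1 site TGANTCA was in 2.82%, 5.76% and 2.84%, and the cyclic AMP element TGACGTCA in 3.55%, 2.59% and 3.71%. The YY1 core was in 1.82%, 1.94% and 2.72%, and the palindromic BoxA core in 0.909%, 0.670% and 0.933%. A match shows letters in this window, which most of the peaks did not touch.

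**Figure D5:**
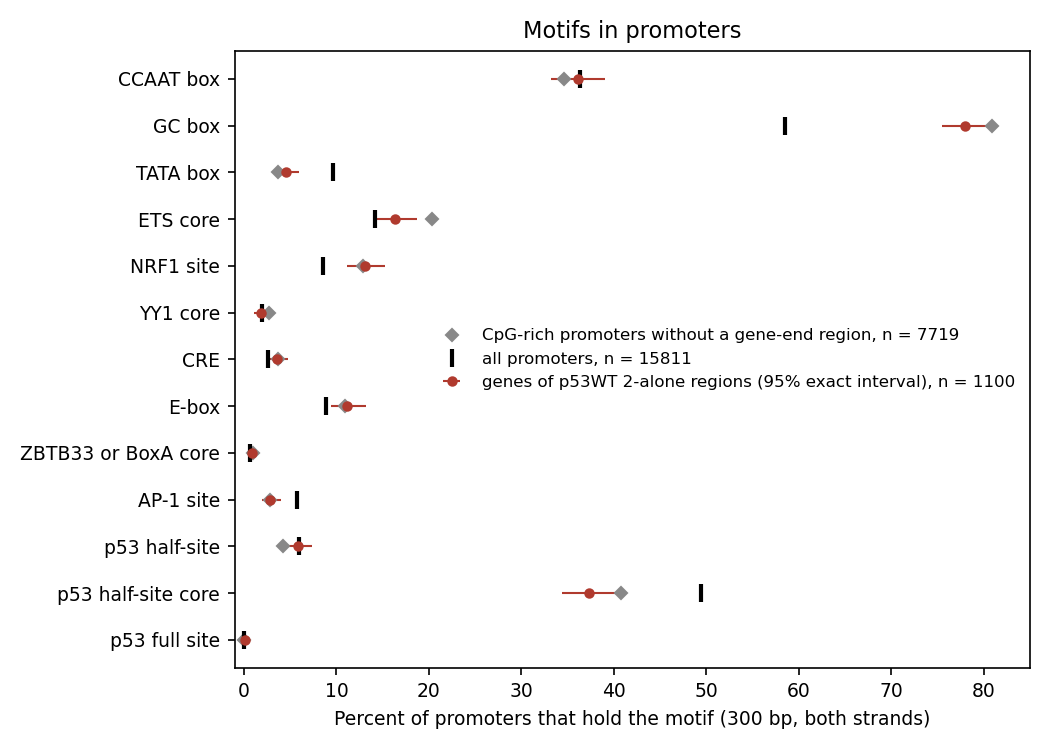
Percent of promoters of 300 bp (x axis) that hold each motif (rows) for genes of p53WT 2-alone regions (circles, 95% exact intervals, 1100 promoters), CpG-rich promoters without a gene-end region (diamonds, 7719) and all promoters (ticks, 15811). The circles lie near the diamonds for most motifs, and the p53 half-site is at 5.82%, 4.28% and 5.93% in this order.

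The genes were longer than average and had about the usual number of transcripts. Median gene length was 43.7 kb (quartiles 17.6 and 102.9), against 24.2 kb over all protein-coding genes, and it was 57.1 kb and 44.8 kb for the genes of both libraries numbered 2 and of CASM34 2 alone. The median number of RefSeq transcripts was 4, as over all genes. Starts of genes on opposite strands within 1 kb of each other were a feature of 12.1% of the genes with a strand (139 of 1145), against 10.2% of all. The share was 12.5% for the genes of both libraries numbered 2 and 12.9% for those of CASM34 2 alone. Of the 1022 regions, with no like share for the other classes given here, 93 (9.10%) had starts on both strands within 1 kb. The strongest of these were at SUGP1 and MAU2 (−log10 q 7.27), SNX5 and MGME1 (7.17), ORMDL1 and PMS1 (6.91), MBTD1 and UTP18 (6.56) and YRDC and C1orf122 (6.31), named after their values were seen. A region within 1 kb of an end of a long non-coding RNA gene as well was found in 285 of 1310 cases (21.8%). No like share over all gene ends or for the other classes is given here, so this count sets nothing apart.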

How the data were processed

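The data are 1 narrowPeak list per library, not pooled. Per the submitters' processing notes, Trim Galore, Bowtie2, bedtools and the build GRCh38 were used; no source used here names the peak caller, its control or its threshold. The authors deposited for each peak a fold (ratio of signal over background), −log10 p, −log10 q and a score (10 times the −log10 q, cut to a whole number); these are the authors' own values. No read counts are given, so depth is unknown, and a list without a peak does not show absence of p53.

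Where an interval was listed more than once, it entered as 1 peak, at the summit with the best −log10 p. Intervals on chromosomes 1 to 22 and X were merged by an overlap of 1 bp or more. Gene ends and promoters came from RefSeq tables of GRCh38.p14. The start is the end of the gene given by its strand, known for 15811 of 19970 genes; in 83.8% it equals the start in the promoter table. Intervals on shares are exact (Clopper-Pearson, 95%) and reflect counting error alone. No test was made, since the regions were chosen by the calls. All 207 entries of 9 gene lists matched, 1 by an older symbol; 17 families were matched by symbol.

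Named genes are the 10 regions of highest −log10 q, every p53 target with a region (1 is not reported here), up to 3 genes of each other list (part of these are given), the regions beside the 1 kb limit and up to 5 promoters with a half-site. The members and lists were chosen with earlier results of these data known. The region counting was tested on simulated peaks. Python 3.11.15, pandas 2.3.3 and scipy 1.17.1 were used. Alternatives were list thresholds, list length, overlap, distance and left-out libraries.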

Additional observations from a re-analysis of the deposited data

Results flagged for a closer look

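Peaks on chromosome Y and on unplaced or other sequences were not used above. Regions called in p53WT 2 alone were found there too, 154 in number, and they are given because they lie outside the comparisons. Every library had peaks there: the p53WT lists held 234 and 413 such peaks, and the CASM34 lists held 263 and 325. Their relation to genes was not examined.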

How the results depend on the processing

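No paired analysis was possible because the results come from no test. Of 77 values recomputed under alternatives, 48 stayed within 1.5 times the count or within the 95% interval of the value, and 29 did not. At a −log10 q of at least 3, at least 5 and with lists of equal length, the regions were 504, 119 and 262, their genes 556, 134 and 291, their p53 targets 5, 1 and 2, and the gene ends with a peak of another library within 10 kb 33, 6 and 18. The median −log10 q was then 3.81, 5.79 and 4.73, and the gene-end share 43.9%, 37.5% and 44.6%. At these settings the lists were cut before the rule was applied, so the regions, genes and targets need not be among those described above. The gene-end share was 38.8% with peaks within 500 bp merged, 32.4% within 500 bp of an end and 45.3% within 2 kb. The share at starts was 98.5% within 500 bp and 94.8% within 2 kb, and between 96.4% and 96.9% at the stricter lists. Gene ends with a peak of another library within 10 kb were 53 with peaks within 500 bp merged and 109 within 500 bp of an end. Without 1 of the other libraries, the regions ranged from 1317 to 1650, the gene-end share from 39.7% to 43.1%, the genes from 1420 to 1779, the share at starts from 96.7% to 97.1%, the median −log10 q from 2.61 to 2.72, the p53 targets from 12 to 22 and the nearby peaks from 40 to 168; CASM34 2 gave the value farthest from the full set each time. By construction no region is left without p53WT 2. Depth is unknown, and how it affects the counts was not tested.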

Other observations

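Of the 1920 regions called in p53WT 2 alone that lay away from the ends of protein-coding genes, 143 had their midpoint within 1 kb of an end of a long non-coding RNA gene. No like count for the other lists is given here. Named after their values were seen, the 143 included FUT8-AS1 on chromosome 14 (65412730 to 65413018, deposited fold 6.36, −log10 q 5.55) and NORAD on chromosome 20 (36050485 to 36050728, fold 5.85, −log10 q 5.08). NORAD is a non-coding RNA known to be induced by DNA damage and to bind PUMILIO proteins. LINC02846 on chromosome 9 had a −log10 q of 6.69.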
